A study of Homo sapiens with 4 samples.

Results

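A family of 10 genes of lysophospholipid signalling was followed across 4 arrays: the sphingosine 1-phosphate (S1P) receptors S1PR1, S1PR2 and S1PR3, the lysophosphatidic acid (LPA) receptors LPAR1, LPAR2 and LPAR3, and the enzymes SPHK1, SGPL1, PLPP3 and ENPP2. They were taken as a listed family, through every probe set annotated to 1 of these genes alone. The list was chosen with earlier results of these data known, so its counts beside the shares of all genes are descriptions. This gave 21 of the 54675 probe sets for the 10 genes, out of 19775 genes that the array names alone on a probe set. All 10 genes and 18 of the 21 probe sets reached a log2 level of 6, used here as the limit of a measured signal, in at least 1 array.

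S1P and LPA are small lipids that act outside the cell on G protein-coupled receptors and set cell shape, migration and survival. Autotaxin, the product of ENPP2, makes LPA from lysophosphatidylcholine, and sphingosine kinases such as SPHK1 make S1P inside the cell. The lyase SGPL1 destroys S1P irreversibly, while the membrane phosphatase PLPP3 removes the phosphate of both lipids. Which effect follows depends on the receptors a cell carries, since S1PR1 acts mainly through inhibitory G proteins, and S1PR2, S1PR3, LPAR1, LPAR2 and LPAR3 through several G protein families.

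The RNA came from SUM159, an established mesenchymal breast cancer line, carrying miR-100, a microRNA, in the doxycycline-inducible pTRIPZ vector. All 4 groups, controls included, held this construct. Cells sorted as ALDH-positive (aldehyde dehydrogenase activity, used to enrich stem-like breast cancer cells) or ALDH-negative were kept in suspension for 10 h, with doxycycline (DOX) or without it (control). Each fraction had a control and a DOX group with 1 array apiece, so array and group cannot be told apart. The sample descriptions give 13 h and doxorubicin instead, and the titles are followed here. The series' stated aim was to find what miR-100 acts on in each fraction. Cells without the construct were not analysed here, and the arrays do not measure the mature miR-100, whose sequence is shown because it is the treatment. It lies at chr11:122152275-122152296 on the minus strand (RefSeq, GRCh38.p14), and the capitals mark its seed, bases 2 to 8.
hsa-miR-100-5p: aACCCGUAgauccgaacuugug

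The arrays had medians of 6.18 to 6.22 and between 11601 and 11935 genes at a level of 6. All 7 mesenchymal markers reached that level on all 4 arrays, while EPCAM, CDH1, ESR1 and PGR stayed under it on every array. The keratins KRT8 and KRT18 (9.93 to 12.45) and ERBB2 (9.22 to 10.17) were above it on all 4. The epithelial splicing factor ESRP1 was at 6.99 and 6.87 in ALDH-positive cells against 3.91 and 4.48 in ALDH-negative cells. ALDH1A1 was at 11.77 and 10.66 in ALDH-positive cells (control, then DOX) and at 10.72 and 10.86 in ALDH-negative cells, so that the ALDH-positive DOX array was not above the ALDH-negative arrays in this enzyme. ALDH1A3, of the same enzyme family, was at 6.48 and 6.64 in ALDH-positive cells and at 5.86 and 7.79 in ALDH-negative cells. It was thus higher in ALDH-positive cells in the control pair (0.63) and lower there in the DOX pair (-1.15). Each ALDH comparison is therefore given for the control pair and the DOX pair apart. In a pair of single arrays a difference was called at 2-fold or more (1 on the log2 scale) where either array reached a level of 6, and it carries no p-value.

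S1PR1 and S1PR3 were lower in ALDH-positive cells by 2-fold or more both without and with DOX, and the other genes were called in 1 pair or in none. In the control pair 3 of 10 were called, all lower in ALDH-positive cells (S1PR1, S1PR3 and LPAR1), where 10.5% of 12052 genes were called, 6.09% higher and 4.40% lower. In the DOX pair 5 of 10 were called: S1PR1, S1PR3, LPAR3 and SPHK1 lower, and S1PR2 higher. There 16.7% of 12228 genes were called, 11.4% higher and 5.32% lower. The median difference of the 10 was -0.35 in the control pair and -0.27 in the DOX pair, against 0.00 and 0.08 over all genes. On the probe set of highest mean for each gene the fractions did not overlap for 9 of the 10, lower in ALDH-positive cells for 5 and higher for 4, where 65.9% of all 12365 measured genes did not overlap, 35.6% higher and 30.2% lower. These 9 include ENPP2, whose 4 arrays were nearly level, and PLPP3 and SPHK1, which did not pass the test given next. As the list was chosen with earlier results of these data known, these counts are no test of the family. The bulk arrays cannot tell fewer cells of a kind from less RNA per cell.

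**Figure D1:**
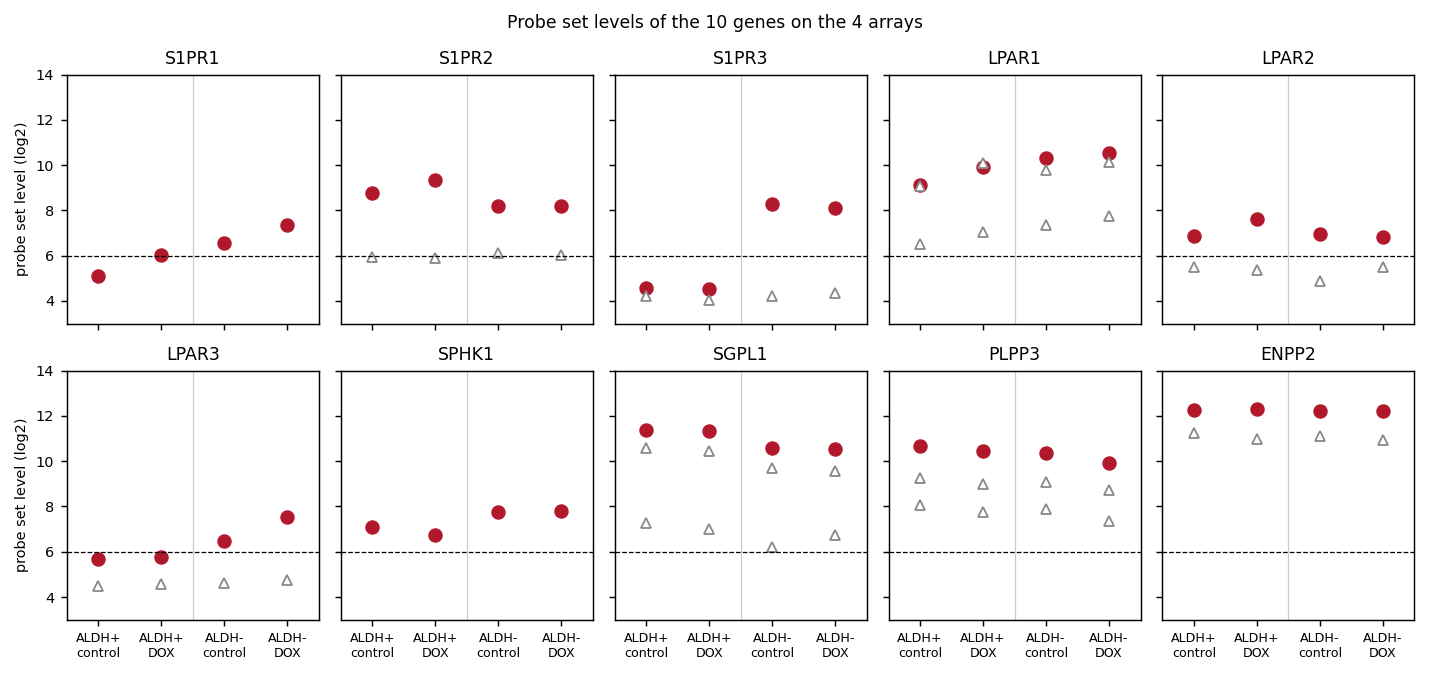
Log2 level of each probe set of the 10 genes (vertical axis) on the 4 arrays (horizontal axis). Filled circles are the probe set of highest mean for a gene, open triangles its other probe sets, and the dashed line is the level of 6. S1PR3 stands at 4.57 and 4.52 in ALDH-positive and 8.26 and 8.09 in ALDH-negative arrays, while ENPP2 lies between 12.21 and 12.29 on all 4.

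An additive limma model over all 4 arrays tested the mean ALDH difference, with each treatment as the repeat of the other. It was fitted to all 12365 measured genes, and its p-values were adjusted by Benjamini and Hochberg over all of them. No group had a second array, so a gene's own spread is how far its DOX difference differed between the fractions (1 residual degree of freedom). The SE rests mostly on the trend of the variance over all genes (11.6 prior degrees of freedom). The labels do not place the cells of the arrays in separate sorts or cultures, so the p-values measure no spread between repeat arrays. At an adjusted p under 0.05, 4 of the 10 genes were lower in ALDH-positive cells (S1PR1, S1PR3, LPAR1 and LPAR3) and 2 higher (S1PR2 and SGPL1). Of all genes, 9.58% passed lower and 13.5% higher, 23.1% in all. The count of 6 was 2 (S1PR1 and S1PR3) without a filter on level and 3 (these and LPAR3) without a trend of the variance. The calls of S1PR2, LPAR1 and SGPL1 thus ended under both and that of LPAR3 under the first. The share of all genes that passed fell too, to 5.95% without the filter and 12.3% without the trend. With each probe set fitted on its own, which was chosen after seeing the data, 5 of the 18 fitted probe sets passed, from S1PR1, S1PR3, LPAR3 and SGPL1, against 13.3% of 24852 probe sets, 7.23% higher and 6.08% lower.

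Among the S1P receptors, S1PR3, which couples to several G proteins and is known from vascular and heart cells, showed the widest range. Its probe set 228176_at was at 4.57 and 4.52 in ALDH-positive cells (control, then DOX) and at 8.26 and 8.09 in ALDH-negative cells. Both ALDH-negative arrays were thus well above the limit of 6 and both ALDH-positive arrays below it. The differences were -3.69 in the control pair and -3.57 in the DOX pair, 12.9-fold and 11.9-fold. The additive model gave -3.63 ± 0.28 (SE, limma adjusted p = 7.52e-06). With levels under 6 set to 6 the differences were -2.26 and -2.09, since both ALDH-positive levels lie under that limit, and with the mean of both probe sets they were -1.84 and -1.94. S1PR3 was measured through the ALDH-negative arrays alone, so the size of its estimate rests on levels under the limit. The estimate was -2.17 with levels under 6 set to 6 (limma adjusted p = 0.00026), and the adjusted p was 0.00688 in limma without a filter on level. The other S1PR3 probe set, 231741_at, read 4.24, 4.03, 4.23 and 4.35 on the arrays in the same order, below 6 on all 4, and so gave no direction. The difference of S1PR3 therefore rests on 1 probe set.

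S1PR1, the receptor known for lymphocyte exit and vessel stability, has 1 probe set here. It was at 5.11 and 6.05 in ALDH-positive cells (control, then DOX) and at 6.57 and 7.37 in ALDH-negative cells. Both ALDH-positive arrays lay below both ALDH-negative arrays, and within each fraction the DOX array was the higher. The ALDH difference was -1.46 in the control pair and -1.32 in the DOX pair, with an additive estimate of -1.39 ± 0.28 (SE, limma adjusted p = 0.00407). With levels under 6 set to 6, the control pair differed by -0.57 and was no longer called.

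S1PR2, a receptor that restrains migration in many cells, went the other way. Its probe set 227684_at was at 8.77 and 9.33 in ALDH-positive cells (control, then DOX) and at 8.19 and 8.19 in ALDH-negative cells. The ALDH-negative arrays were level with each other and below both ALDH-positive arrays. The difference was 0.58 in the control pair and 1.14 in the DOX pair, with an additive estimate of 0.86 ± 0.28 (SE, limma adjusted p = 0.0403). Its other probe set, 208537_at, lay between 5.89 and 6.10 on the 4 arrays, at the limit, with ALDH differences of -0.18 and -0.16. With each probe set fitted on its own the adjusted p for 227684_at was 0.0802, and over all alternatives of the limma model that of the gene ran from 0.0277 to 0.245.

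Among the LPA receptors, LPAR1, the most widely expressed of them, was measured by 3 probe sets. Probe set 204036_at was at 9.11 and 9.92 in ALDH-positive cells (control, then DOX) and at 10.31 and 10.54 in ALDH-negative cells. The ALDH-positive control array stood apart below the other 3. The difference was -1.20 in the control pair and -0.62 in the DOX pair, with an additive estimate of -0.91 ± 0.25 (SE, limma adjusted p = 0.0191). The other probe sets differed by -0.70 and -0.85 in the control pair, and by -0.05 and -0.68 in the DOX pair. None of the 3 passed when fitted on its own, 204036_at included (limma adjusted p = 0.0531). On 204037_at the fractions overlapped. With the mean of the 3 probe sets the adjusted p was 0.0697, in a range of 0.00745 to 0.0910 over the alternatives.

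LPAR3, which couples to calcium signalling, was near the limit in ALDH-positive cells. Its probe set 231192_at was at 5.68 and 5.76 in ALDH-positive cells (control, then DOX) and at 6.47 and 7.54 in ALDH-negative cells. The ALDH-negative DOX array stood above the other 3. The difference was -0.79 in the control pair and -1.78 in the DOX pair, with an additive estimate of -1.28 ± 0.31 (SE, limma adjusted p = 0.0115). The other probe set, 220816_at, stayed between 4.48 and 4.74 on the 4 arrays and gave no direction. LPAR3 too was measured through the ALDH-negative arrays alone. With levels under 6 set to 6 its differences were -0.47 and -1.54 and its estimate -1.01 (limma adjusted p = 0.0184), and without a filter on level it did not pass (limma adjusted p = 0.0625). The adjusted p for LPAR3 ran from 0.0106 to 0.0986 over the alternatives.

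LPAR2, a receptor often raised in tumours, showed no ALDH difference that passed. Its probe set 206723_s_at was at 6.87 and 7.64 in ALDH-positive cells (control, then DOX) and at 6.96 and 6.83 in ALDH-negative cells. The ALDH-positive DOX array was the high one and the other 3 lay close together. The additive estimate was 0.36 ± 0.30 (SE, limma adjusted p = 0.428). Its second probe set lay under 6 on all 4 arrays.

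Of the 2 enzymes that act on S1P inside the cell, the S1P-destroying lyase SGPL1 was higher in ALDH-positive cells. Probe set 212321_at was at 11.39 and 11.32 in ALDH-positive cells (control, then DOX) and at 10.59 and 10.55 in ALDH-negative cells. The arrays of a fraction were close to each other and the fractions did not overlap. The differences were 0.80 and 0.77, with an additive estimate of 0.78 ± 0.19 (SE, limma adjusted p = 0.0105). Probe set 212322_at differed by 0.89 and 0.91 and passed on its own too (limma adjusted p = 0.0407), while 208381_s_at differed by 1.05 and 0.27 and did not (limma adjusted p = 0.188). The adjusted p for the gene was 0.0537 without a filter on level and 0.0535 without a trend of the variance, in a range of 0.00439 to 0.0537.

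SPHK1, the kinase that makes S1P, has 1 probe set, of the kind that several transcripts can share. It was at 7.11 and 6.75 in ALDH-positive cells (control, then DOX) and at 7.74 and 7.78 in ALDH-negative cells. Both ALDH-positive arrays were lower, with differences of -0.62 in the control pair and -1.04 in the DOX pair. The additive estimate of -0.83 ± 0.28 (SE) missed the threshold (limma adjusted p = 0.0514), and the adjusted p ran from 0.0310 to 0.113 over the alternatives.

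Neither enzyme that acts on the lipids outside the cell passed the test. ENPP2, which encodes autotaxin, was at 12.25 and 12.29 in ALDH-positive cells (control, then DOX) and at 12.22 and 12.21 in ALDH-negative cells. Its 4 arrays lay within 0.08 of each other, and the additive ALDH estimate was 0.06 ± 0.12 (SE, limma adjusted p = 0.785). Its second probe set differed by 0.11 and 0.08. PLPP3, the phosphatase, was at 10.67 and 10.47 in ALDH-positive cells (control, then DOX) and at 10.34 and 9.94 in ALDH-negative cells on 212230_at. The 3 probe sets of PLPP3 lay higher in ALDH-positive cells in both pairs, by 0.18 to 0.53. The additive estimate of 0.43 ± 0.22 (SE) did not pass (limma adjusted p = 0.181).

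**Figure D2:**
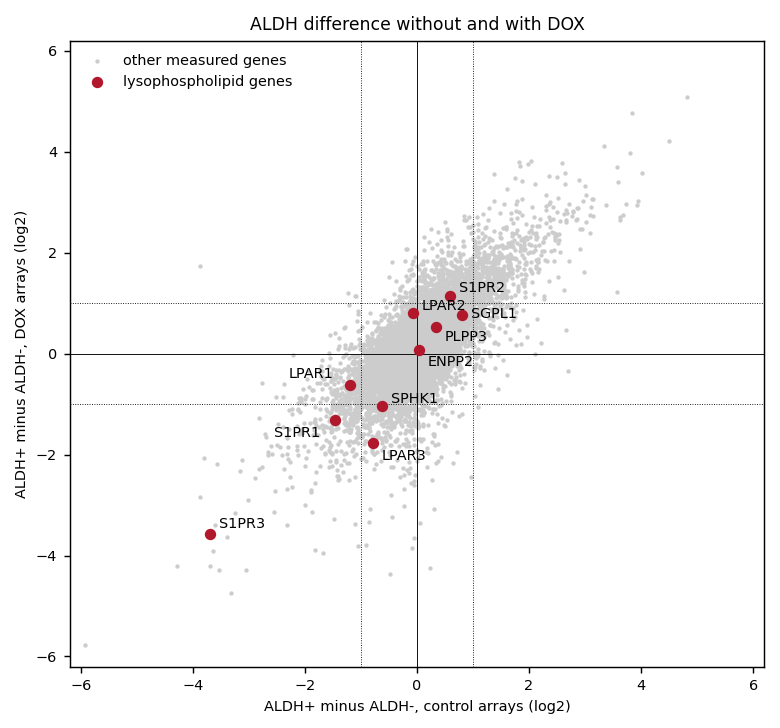
ALDH-positive minus ALDH-negative difference (log2) in the control arrays (horizontal axis) and in the DOX arrays (vertical axis), pairs that share no array. Red points are the 10 genes, grey points all other measured genes, and dotted lines mark 2-fold. S1PR3 lies at -3.69 and -3.57, S1PR1 at -1.46 and -1.32, and ENPP2 at 0.03 and 0.08.

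Few of the 10 genes differed by 2-fold with DOX, the inducer of miR-100. In the ALDH-positive pair none of the 8 genes at a level of 6 in that pair was called, where 5.78% of 12151 genes were, 3.47% higher and 2.30% lower. This split over all genes, 422 higher and 280 lower, turned to 264 and 387 with each array centred on the median of its measured genes, a setting chosen after seeing the data. The median difference of these 8 was 0.30, against 0.12 over all genes of that pair. In the ALDH-negative pair 1 of 10, LPAR3, was called, where 0.322% of 11819 genes were, 0.271% higher and 0.0508% lower, and the medians were 0.00 for the 10 and for all genes. No member passed the DOX term of the additive limma model, in which 0.00809% of 12365 genes passed, 1 gene in all. Before adjustment 1 of the 10, S1PR1, had an unadjusted p under 0.05 in limma, and its adjusted p of 0.855 was the smallest of the 10. The share of all genes with an unadjusted p under 0.05 is not given here.

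LPAR3 was at 6.47 in the ALDH-negative control and 7.54 in the ALDH-negative DOX array, a difference of 1.07, against 0.08 in the ALDH-positive pair, where both arrays lay under 6. The difference between the DOX differences was -0.99, just short of 2-fold. It was -1.14 with each array centred on the median of its measured genes, a setting chosen after seeing the data. With levels under 6 set to 6 it was -1.07, with cyclic loess -0.94 and with the mean of both probe sets -0.52. This difference has no residual degree of freedom and was not tested. By that size rule 6.19% of 12365 genes were called, 3.78% higher and 2.40% lower, and none of the 10. With that centring the split over all genes turned from 468 higher and 297 lower to 295 and 440, and 1 of the 10, LPAR3, was called.

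S1PR1 lay higher with DOX in both fractions, by 0.95 (ALDH-positive) and 0.80 (ALDH-negative), with a limma DOX estimate of 0.87 ± 0.28 (SE, limma adjusted p = 0.855). The first of these starts from a level under 6 and was 0.05 with levels under 6 set to 6. LPAR1 lay higher by 0.81 in ALDH-positive cells and by 0.24 in ALDH-negative cells on 204036_at. Its probe set 204037_at went from 9.06 to 10.08 in ALDH-positive cells, a difference of 1.02, and 204038_s_at differed by 0.54, so the 3 probe sets went the same way in both fractions. LPAR2 differed by 0.76 in ALDH-positive cells and -0.12 in ALDH-negative cells, and S1PR2 by 0.56 and 0.00. S1PR3 differed by -0.17 in ALDH-negative cells, and in ALDH-positive cells, where both arrays lay under 6, it was not compared.

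No probe set of the enzymes differed by 2-fold with DOX. SPHK1 was at -0.37 in the ALDH-positive pair and 0.05 in the ALDH-negative pair. PLPP3 lay lower on all 3 of its probe sets in both fractions, with differences of -0.20 to -0.30 in ALDH-positive cells and -0.35 to -0.54 in ALDH-negative cells. SGPL1 was at -0.08 (ALDH-positive) and -0.04 (ALDH-negative) on its main probe set, and ENPP2 at 0.04 and -0.01. On their other probe sets SGPL1 was at -0.12 and -0.15 (212322_at) and at -0.25 and 0.52 (208381_s_at). ENPP2 was at -0.23 and -0.21 on its second probe set.

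**Figure D3:**
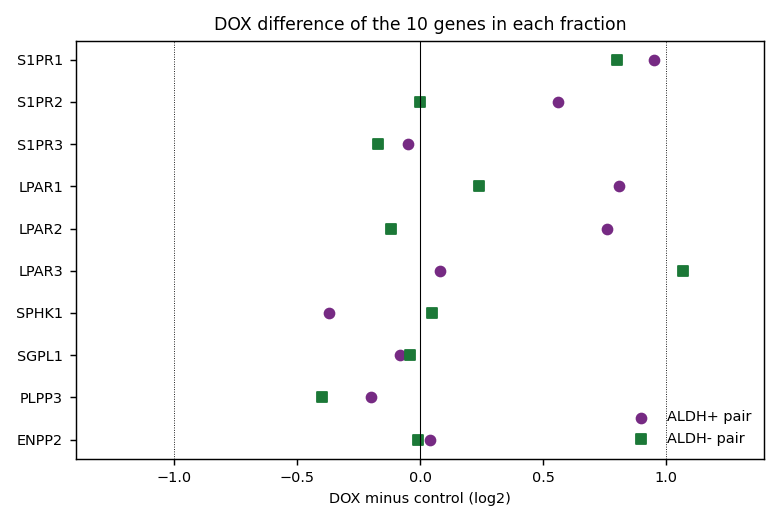
DOX minus control difference (log2, horizontal axis) of the 10 genes in the ALDH-positive pair (circles) and the ALDH-negative pair (squares), with dotted lines at 2-fold. The circles of S1PR3 and LPAR3 come from arrays under the level of 6 and were not compared. LPAR3 in the ALDH-negative pair, at 1.07, is the point beyond the line, and S1PR1 lies at 0.95 and 0.80.

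Other genes of the pathway were counted in 3 lists. Among the other S1P and LPA receptors 3 of the 9 on the array were measured. LPAR6, another LPA receptor, was at 7.70 and 8.96 in ALDH-positive cells (control, then DOX) and at 9.23 and 9.40 in ALDH-negative cells. As for LPAR1, its ALDH-positive control array was the low one. Its differences were -1.53 and -0.44 between fractions and 1.25 with DOX in ALDH-positive cells, and its additive ALDH estimate passed (-0.99 ± 0.30 SE, limma adjusted p = 0.0337). S1PR4 and S1PR5 did not pass, with estimates of -0.18 and -0.41.

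Of 10 measured genes of S1P and ceramide metabolism and transport 1 passed the ALDH term, higher, where 23.1% of all genes passed, 13.5% higher. This was SGPP2, an S1P phosphatase, at 8.38 and 8.39 in the ALDH-positive control and DOX arrays and 6.86 and 6.87 in the ALDH-negative ones, with an estimate of 1.52 ± 0.28 (SE, limma adjusted p = 0.00213). Its other probe sets differed by 1.02 and 1.09 in the control pair but by 0.32 and -0.28 in the DOX pair. APOM, the S1P carrier, was at 0.76 and the ceramide synthases CERS5 and CERS6 at 0.34 and 0.40, none of which passed. The median ALDH estimate of this list was -0.10.

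Of 16 measured genes of LPA and phosphatidate metabolism 2 passed the ALDH term, both higher, no more than the share of all genes, with a list median of 0.04. They were ACP6, a phosphatase of LPA (1.16 ± 0.28 SE, limma adjusted p = 0.0103), and the diacylglycerol kinase DGKA (0.71 ± 0.24 SE, limma adjusted p = 0.0461). PLPP4 differed by 1.12 with DOX in ALDH-positive cells, from a level of 5.94 to 7.05, and LIPH by 0.69.

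No gene of the 3 lists passed the limma DOX term, where 3 (LPAR6, CERS5 and PLPP4) had an unadjusted p under 0.05. The share of all genes under that limit is not given here. By size, LPAR6 and PLPP4 were called higher with DOX in ALDH-positive cells and none was called in ALDH-negative cells. In the ALDH-positive pair 2, 10 and 16 genes were compared in the 3 lists in the order above. Of all genes 3.47% were called higher in that pair, and 0.322% either way in the ALDH-negative pair.

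**Figure D4:**
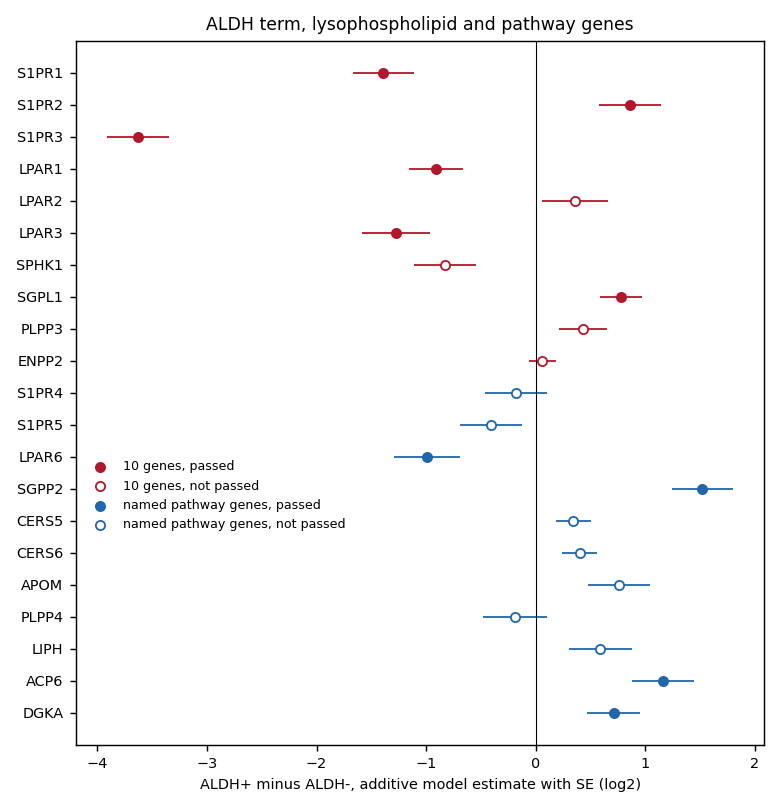
Additive model estimate of the ALDH-positive minus ALDH-negative difference (log2, horizontal axis) with its SE for the 10 genes (red) and the named genes of the pathway lists (blue). Filled points passed an adjusted p of 0.05. S1PR3 at -3.63 is the lowest of those drawn, and SGPP2 at 1.52 is the highest.

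Some of these receptors are best known from endothelium and leukocytes, so their markers are given beside them. Of 8 endothelial markers 4 reached a level of 6. PECAM1 differed between the fractions by -3.80 in the control pair, ERG by -1.57, KDR by 3.08 and EGFL7 by 0.19. In the DOX pair the differences were -2.06, -1.34, 2.75 and -0.12 in the same order. The other 4, CDH5, TEK, VWF and CLDN5, stayed between 3.58 and 5.28, under 6 on all 4 arrays. The summed log2 level of the 8 was 48.08 and 48.11 in the ALDH-positive control and DOX arrays and 50.20 and 48.93 in the ALDH-negative ones. Of the 7 leukocyte markers on the array 3 were measured (MS4A1, LAPTM5 and CD74), and PTPRC and CD3E were under 6 on every array. MS4A1 reached 6 in the ALDH-positive DOX array alone, at 6.21. LAPTM5 was higher in ALDH-positive cells by 1.76 in the control pair and 1.88 in the DOX pair, and CD74 by 1.09 and 2.56. The summed level of the 7 was 42.23 and 45.04 in ALDH-positive and 37.66 and 37.48 in ALDH-negative arrays. The part of PECAM1, ERG, KDR, LAPTM5 and CD74 in the receptor values was not tested.

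By pattern over the 4 arrays, 5 genes lay nearest to S1PR3, by the Euclidean distance between log2 values centred on each gene's mean. They were C10orf90 at a distance of 0.21, the water and glycerol channel AQP9 at 0.25, the matrix protease MMP3 at 0.33, the acetylcholine receptor subunit CHRNA9 at 0.47 and the RNA-binding protein IGF2BP3 at 0.55. Each was lower in both ALDH-positive arrays, by -3.39 to -3.69 in the control pair. This is a description over 4 arrays of 1 line.

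The promoters of the 2 genes with the lowest and the 2 with the highest additive ALDH estimates of the 10 are shown, as the 250 bases before the RefSeq start on GRCh38.p14, 5′ to 3′ on the strand of the gene. The table holds 2 starts for S1PR3, of which the first is printed. Capitals mark matches, on either strand, to the SP1 box GGGCGG, the only motif of those searched that these 4 windows held.
S1PR3 promoter, GRCh38.p14 chr9:88990613-88990862, plus strand: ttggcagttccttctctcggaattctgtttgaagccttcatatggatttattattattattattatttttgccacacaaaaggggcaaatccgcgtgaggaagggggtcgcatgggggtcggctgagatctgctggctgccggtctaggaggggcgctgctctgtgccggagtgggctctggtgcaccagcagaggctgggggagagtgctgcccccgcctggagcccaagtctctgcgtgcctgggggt
S1PR1 promoter, GRCh38.p14 chr1:101236769-101237018, plus strand: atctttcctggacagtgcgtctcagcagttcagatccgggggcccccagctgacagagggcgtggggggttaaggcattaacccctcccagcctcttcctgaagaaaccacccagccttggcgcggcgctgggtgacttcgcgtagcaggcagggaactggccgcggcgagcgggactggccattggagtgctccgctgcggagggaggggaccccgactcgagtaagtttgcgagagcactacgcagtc
S1PR2 promoter, GRCh38.p14 chr19:10231332-10231581, minus strand: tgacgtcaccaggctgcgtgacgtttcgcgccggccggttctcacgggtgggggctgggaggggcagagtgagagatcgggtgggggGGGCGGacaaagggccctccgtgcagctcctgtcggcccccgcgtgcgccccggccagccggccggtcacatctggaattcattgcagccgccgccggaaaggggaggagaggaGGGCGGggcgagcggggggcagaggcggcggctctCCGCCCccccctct
SGPL1 promoter, GRCh38.p14 chr10:70815698-70815947, plus strand: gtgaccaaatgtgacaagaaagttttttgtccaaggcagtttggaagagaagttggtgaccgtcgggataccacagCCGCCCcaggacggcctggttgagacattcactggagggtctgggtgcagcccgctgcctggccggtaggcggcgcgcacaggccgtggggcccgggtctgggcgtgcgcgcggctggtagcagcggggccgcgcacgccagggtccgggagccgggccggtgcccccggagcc

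The windows of S1PR3 and S1PR1 had no match to the SP1 box, that of SGPL1 had 1 and that of S1PR2 had 3, while 42.3% of 27305 promoter windows of this length had at least 1. The GC content was 57.2% for S1PR3, 64.4% for S1PR1, 74% for S1PR2 and 68.8% for SGPL1, against a median of 58% over all windows. The number of CpG dinucleotides was 10, 18, 27 and 23 in the same order, against a median of 11. LPAR3, lower in ALDH-positive cells like S1PR3 and S1PR1, had 2 matches to the SP1 box, which overlap, and 27 CpG dinucleotides. LPAR1, which passed lower, had 1 match to that box, as had SPHK1, which lay lower without passing. LPAR2, which did not pass, had 3 matches. PLPP3, which lay higher without passing, had no match. The other motifs were the AP-1 site TGANTCA (in 6.60% of all windows), the TEAD site GGAATG (11.9%), the TATA box TATAAA (11.1%) and the core of the amino acid response element TGATGCAA (0.820%). Of these, LPAR1 had a TATA box, LPAR2 an AP-1 site and SPHK1 a TEAD site. The table holds 6 starts for LPAR1 and 3 for SPHK1, and the first of each was searched. A match is a description of the letters and no evidence of binding.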

How the data were processed

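Total RNA of the 4 samples was labelled as biotinylated cRNA and hybridised to Affymetrix expression arrays, per the labels' protocols. The authors deposited 1 log2 value per probe set and array, computed by RMA, per the submitters' processing notes. RMA sets the probes of all arrays to 1 distribution, which removes most of a shift common to all genes. The values were used as deposited, and the number of arrays limits their precision.

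Probe sets were named from a platform annotation of 2016, in which 41097 had 1 gene, 1801 several and 11777 none. The probe set of highest mean over the 4 arrays stood for a gene, and genes reaching 6 on any array (12365) counted as measured. The additive model (ALDH fraction and DOX, limma 3.58.1 with trend, R 4.3.3) had 1 residual and 11.6 prior degrees of freedom. It counts a response that differs between fractions as error. P-values are two-sided. The steps were tested on simulated data. The lists named up to 4 genes each, by the largest difference in any pair. 1 further list is not reported here, for a reason unrelated to its values. The members and lists were chosen with earlier results of these data known. Promoter and miRNA sequences are from RefSeq tables (GRCh38.p14), 9 of the 10 genes having a promoter used here. Calculations used Python 3.11.15, numpy 2.4.6 and pandas 2.3.3.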

Additional observations from a re-analysis of the deposited data

How the results depend on the processing

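Of 636 values of single members recomputed under the alternatives, 598 kept their side of the threshold, 17 no longer passed and 21 newly passed, and no called value changed sign. Most of the 636 belong to results not called in the main setting, among them every DOX term. The 598 thus say little about the called results, on which all 17 losses fell. S1PR3 was lower in ALDH-positive cells in both pairs and in the additive limma model under every alternative run. Its limma adjusted p-values ran from 1.77e-07 to 0.00688, and those of S1PR1 from 0.00379 to 0.0240. The lowest, at a level of 7, came with a filter that S1PR3 passed through the ALDH-negative arrays alone. All alternatives reuse the same 4 arrays, so their agreement is no independent support.

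The number of the 10 genes that passed the ALDH term was 6, and 2 without a filter on level and 3 without a trend of the variance. Of all genes 23.1%, 5.95% and 12.3% passed in that order. The number was 4 with the mean of probe sets (16.7% of all genes) and 4 with each probe set fitted on its own (13.3% of probe sets). The number was 7 with centring on the median of all probe sets, with cyclic loess and with robust estimation. Of all genes 22.8%, 20.5% and 22.6% passed in these settings. There SPHK1 passed too (limma adjusted p = 0.0465, 0.046 and 0.0478 in that order). Over all genes the ALDH term passed 1672 higher and 1184 lower, 767 and 410 without the filter, and 998 and 529 without the trend. At a size of 1.5-fold the called members were 6 in the control pair, 8 in the DOX pair, 3 (ALDH-positive) and 2 (ALDH-negative) with DOX, and 2 for the difference between the DOX differences, where 26.1%, 35.5%, 21.5%, 1.77% and 22.3% of all genes were. With the mean of probe sets 3 were called between the fractions in the DOX arrays and 0 with DOX in ALDH-negative cells. Of all genes 13.8% and 0.192% were called there. Cyclic loess called 1 with DOX in ALDH-positive cells (S1PR1, 1.01), and 5.61% of all genes. Centring on the median of all probe sets, or of measured genes, and levels under 6 set to 6 each called 1 difference between the DOX differences (LPAR3). These settings called 6.1%, 5.95% and 5.12% of all genes in that order. Centring on measured genes, chosen after seeing the data, moved the split over all genes with DOX in ALDH-positive cells from 422 higher and 280 lower to 264 and 387, that between the fractions in DOX arrays from 1396 and 650 to 1124 and 843, and that of the difference between the DOX differences from 468 and 297 to 295 and 440. The cause of these shifts was not tested.

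LPAR2 and SPHK1 have no value without shared probe sets. No paired analysis was possible by replicate number, because each group holds 1 array and the labels give no such numbers. The additive model sets the fractions against each other within each treatment, and leaving out an array leaves no residual degree of freedom. Levels under 6 on S1PR3, S1PR1 and LPAR3 limit the size of their differences.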

Other observations

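The nearest measured gene on each side of the 10 genes on the chromosome, in RefSeq order (GRCh38.p14), gave 20 neighbours, of which 2 were called between the fractions without DOX, 1 between them with DOX, 2 with DOX in ALDH-positive cells and 0 with DOX in ALDH-negative cells, and 1 for the difference between the DOX differences. Of all genes 10.5%, 16.7%, 5.78%, 0.322% and 6.19% were called in the same order. They were looked at after the values of the 10 genes were known. Beside S1PR3, SPIN1 differed between the fractions by -0.01 in the control pair and -0.19 in the DOX pair, and the adaptor gene SHC3 by -1.54 and -0.55. SHC3 was at 5.13 and 6.84 in ALDH-positive cells (control, then DOX) and at 6.67 and 7.40 in ALDH-negative cells, with DOX differences of 1.71, from a level under 6, and 0.73. Beside ENPP2, which was nearly level, the matricellular gene CCN3 differed by -2.40 and -0.86 and TAF2 by -0.38 and -0.33.

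SGPP2 and CERS6, both of S1P and ceramide handling, had probe sets that went apart with DOX in ALDH-positive cells. For SGPP2 the probe set of highest mean differed by 0.02 and 244780_at by -1.47. For CERS6 the probe set of highest mean differed by -0.17 and 242019_at by -1.71, while 212442_s_at and 235463_s_at differed by -0.84 and -0.88. In the ALDH-negative pair the same 4 probe sets of CERS6 lay between -0.13 and 0.07. Which transcripts these probe sets match was not analysed here.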
